A study of Mus musculus with 6 samples.

Results

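The matrix metalloproteinases (MMPs) and the tissue inhibitors of metalloproteinases (TIMPs) of serum-starved NIH3T3 cells are described here as 10 genes, 7 MMPs and 3 TIMPs, out of 16000 genes in the deposited tables. They were chosen by symbol: Mmp2, Mmp3, Mmp9, Mmp10, Mmp13, Mmp14, Mmp19, Timp1, Timp2 and Timp3. NIH3T3 is an established fibroblast line from mouse embryos. All cells were under serum starvation, which brings fibroblasts to rest, and the groups are 3 wild-type (WT) libraries and 3 with the genotype label Rai16 KO, called knockout below. The labels give no lesion, clone, culture or age, so whether the spread behind the p-values is biological or technical is unknown.

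MMPs are zinc-dependent proteases that are made as inactive precursors and cut collagens, basement membrane proteins and one another outside the cell. TIMPs are small secreted proteins that occupy the active site of MMPs and so limit how far matrix is broken down. Resting fibroblasts are known to make the gelatinase Mmp2, its membrane-bound activator Mmp14 and Timp2, which bridges the pair at the cell surface, whereas stromelysins and collagenases are typically induced by growth factors and cytokines.

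Among the 10 genes, the strongest rises were in the stromelysin genes Mmp3 and Mmp10, which lie near each other in a cluster of MMP genes on chromosome 9, while the collagenase gene Mmp13 of the same cluster fell. The promoters of these 3 genes are shown because they stand within 1 cluster and the genes changed in opposite directions. Each sequence holds the 250 bases before and the 50 bases from the transcription start, from RefSeq on build GRCm38.p6, plus strand, with a match to the AP-1 motif (letters TGANTCA, where N is any base) in capitals. Mmp3 is at chr9:7445572-7445871, Mmp10 at chr9:7502092-7502391 and Mmp13 at chr9:7272264-7272563.
Mmp3: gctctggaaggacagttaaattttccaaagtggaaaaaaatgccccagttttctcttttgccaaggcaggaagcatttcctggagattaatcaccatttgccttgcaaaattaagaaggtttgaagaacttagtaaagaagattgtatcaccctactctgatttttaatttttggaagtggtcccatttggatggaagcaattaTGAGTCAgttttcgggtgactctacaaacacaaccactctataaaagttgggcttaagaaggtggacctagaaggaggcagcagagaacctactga
Mmp10: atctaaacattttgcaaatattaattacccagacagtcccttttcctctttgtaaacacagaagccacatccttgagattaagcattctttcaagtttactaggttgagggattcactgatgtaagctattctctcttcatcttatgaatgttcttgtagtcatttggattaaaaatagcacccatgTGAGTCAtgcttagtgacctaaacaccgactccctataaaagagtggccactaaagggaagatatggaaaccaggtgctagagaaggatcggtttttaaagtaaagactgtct
Mmp13: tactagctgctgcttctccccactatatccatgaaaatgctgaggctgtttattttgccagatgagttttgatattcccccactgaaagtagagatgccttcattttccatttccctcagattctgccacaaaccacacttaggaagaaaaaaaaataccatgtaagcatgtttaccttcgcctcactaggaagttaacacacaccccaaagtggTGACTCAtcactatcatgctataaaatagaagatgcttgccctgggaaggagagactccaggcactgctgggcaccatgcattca

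Each of these promoters held 1 AP-1 match, TGAGTCA in Mmp3 and Mmp10 and TGACTCA in Mmp13. The match began 46 bases before the start in Mmp3, 63 in Mmp10 and 35 in Mmp13. Each also held the TATA box letters TATAAA, beginning 7, 29 and 16 bases before the start in the same order. Of 32851 promoters of the same length, 7.81% held the AP-1 letters and 13.6% held TATAAA on either strand, and no AP-1 match in the 3 promoters overlapped a TATAAA. Promoters were found for 7 of the 10 genes, and those of Mmp14, Timp1, Timp2 and Timp3 held neither motif. The ETS letters AGGAAG, present in 35.4% of promoters, occurred, within this cluster, once in Mmp3, in 2 places in Mmp13 and nowhere in the Mmp10 window. The RUNX letters ACCACA, in 16.8% of promoters, occurred in Mmp13 and Mmp14 among the 7. A match is a description of letters and not a measured site. In an alignment of the whole windows, Mmp3 and Mmp10 had 202 identical bases, Mmp3 and Mmp13 had 178 and Mmp10 and Mmp13 had 173. Gaps were allowed and no other promoters were aligned, so these numbers have no baseline and do not show relatedness.

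The libraries held 16741607 to 18368760 counts. Counts below are also given as CPM, counts scaled to a common library size with TMM factors. Knockout replicate 2 stood apart: its counts differed from those of the other knockout libraries by a chi-square of 26.9 and 29.0 per degree of freedom, where knockout replicates 1 and 3 differed by 1.71 and wild-type pairs by 1.91 to 2.27. Each result that changes without this library is given both ways. The targeted gene, listed as Fam160b2, had 375 to 440 counts in wild type and 390 to 410 in the knockout libraries, and a count over the whole gene cannot show whether a small lesion is present. Fibroblast markers were abundant in all libraries. The 9 listed summed to 9542 to 9615 CPM in wild type and 12243 to 12663 CPM in knockout. Of the 8 tested, 5 were higher and 1 lower by test, against 30.5% and 29.2% of all genes. The call of the lower one, Pdgfrb, was lost without any 1 wild-type library and without knockout replicate 1. Fap, a marker of activated fibroblasts, had 0 to 2 counts in any library. RNA of whole cultures was measured, so more or fewer expressing cells and more or less RNA per cell cannot be told apart.

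In edgeR's quasi-likelihood test of knockout against wild type, 4 of the 10 genes were higher, 4 were lower and 2 were not called at an adjusted p under 0.05. Over all 11972 genes tested, 59.6% were called, 30.5% higher and 29.2% lower. The CPM of the groups did not overlap for 8 of the 10 genes, against 67.6% of all genes. These shares lie near the background, so the counts say nothing particular about the family. In Mmp2 and Timp1 the groups overlapped only through knockout replicate 2, and the share of all genes without that library was not computed. Mmp3 and Mmp10 passed the filter on low counts only through the knockout libraries and so had to differ. The other 8 genes passed it in every library. At least 2-fold changes were found in Mmp3 and Mmp10, which were higher (4.32% of all genes), and in Mmp9, which was lower (6.53%). Without knockout replicate 2 the counts were 4 higher and 5 lower, and over 12082 genes 36.0% were higher and 35.1% lower.

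**Figure D1:**
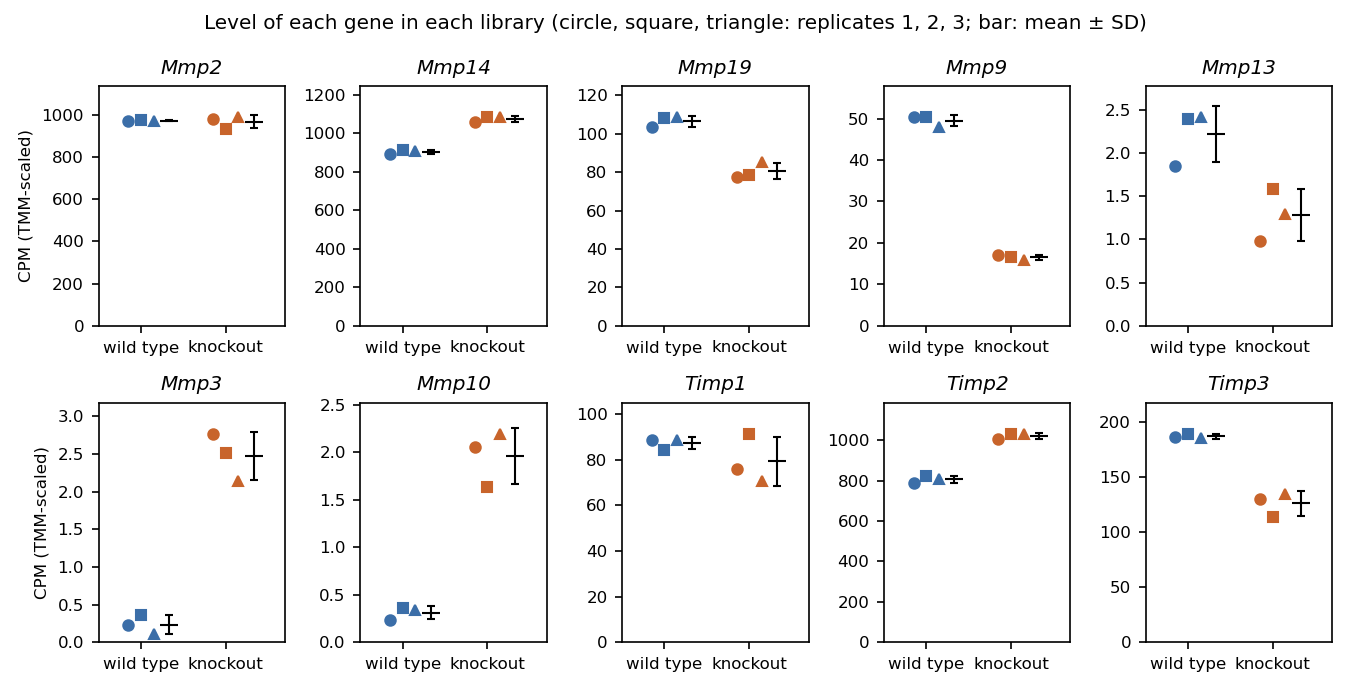
CPM of each gene on a linear axis from 0 (circle, square and triangle: replicates 1, 2 and 3; black bar: mean ± SD, n = 3), with wild type in blue and knockout in orange. The groups overlap in Mmp2 and Timp1 and stand apart in the other 8 genes.

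Of the gelatinase genes, Mmp9 fell and Mmp2 was not called. Mmp2 encodes gelatinase A and lies on chromosome 8. Its level was 969, 974 and 971 CPM in wild-type replicates 1, 2 and 3, and 981, 933 and 987 CPM in knockout replicates 1, 2 and 3. The wild-type values lie within the range of the knockout values, of which replicate 2 is the lowest. The log2 fold change of Mmp2 was −0.0062 ± 0.053 (SE; adjusted p = 0.927), and its 95% interval of −0.13 to 0.11 bounds the change that these libraries allow.

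Mmp9 encodes gelatinase B, which also cleaves denatured collagen and basement membrane collagen, and lies on chromosome 2. It had 50.3, 50.3 and 47.9 CPM in wild type and 17.0, 16.6 and 15.9 CPM in knockout. The highest knockout library was far below the lowest wild-type library. The log2 fold change was −1.58 ± 0.065 (adjusted p = 2.13e-07), and Mmp9 was lower in 3 of 3 knockout libraries.

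Mmp14 encodes the membrane-anchored MMP that activates the Mmp2 precursor, and lies on chromosome 14. It had 894, 912 and 907 CPM in wild type and 1057, 1083 and 1084 CPM in knockout. All knockout libraries were higher, by a narrow margin that exceeded the spread within groups. On the log2 scale Mmp14 rose by 0.25 ± 0.051 (adjusted p = 0.00265), or 1.19-fold.

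The stromelysin genes were near the floor of detection in wild type. Mmp3, whose product degrades proteoglycans and activates other MMP precursors, had 4, 6 and 2 counts in wild type and 51, 46 and 38 in knockout. Mmp10, the closely related stromelysin, had 4, 6 and 6 counts in wild type and 38, 30 and 39 in knockout. Every knockout library was well above every wild-type library for both genes, but their levels stayed low, at 2.14 to 2.77 CPM for Mmp3 and 1.63 to 2.20 CPM for Mmp10.

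From the summed counts, Mmp3 was 10.6-fold higher in knockout (12 against 135 counts, 95% counting interval 5.87 to 21.0). Mmp10 was 6.30-fold higher (16 against 107 counts, 3.71 to 11.4). These intervals cover counting error only, and copies made by PCR are not independent molecules. The fitted log2 fold changes were 3.37 ± 0.34 for Mmp3 (adjusted p = 4.3e-05) and 2.63 ± 0.31 for Mmp10 (adjusted p = 9.95e-05). Both genes passed the filter only through the knockout libraries, so these p-values lend no support to the rises. Related stromelysin sequences could share reads, and the sources used here do not say how such reads were counted.

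Mmp13, which cuts fibrillar collagen, had 32, 40 and 42 counts in wild type and 18, 29 and 23 in knockout. In CPM the highest knockout library (1.58) lay just below the lowest wild-type library (1.85). The log2 fold change was −0.79 ± 0.24 (adjusted p = 0.0204), with a counting ratio of knockout to wild type of 0.579 (95% interval 0.423 to 0.786). The call was lost without wild-type replicate 2 (adjusted p = 0.0696), wild-type replicate 3 (0.0722) or knockout replicate 1 (0.0709).

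Mmp19, an MMP that acts on basement membrane components, lies on chromosome 10. It had 103, 108 and 109 CPM in wild type and 77.6, 78.5 and 85.4 CPM in knockout. The groups were clearly apart. Mmp19 fell by 0.41 ± 0.061 on the log2 scale (adjusted p = 4.38e-04), or 1.32-fold.

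Of the inhibitors, Timp2 was higher, Timp3 lower and Timp1 dependent on 1 library. Timp2, on chromosome 11, binds both the Mmp2 precursor and Mmp14. Its level was 789, 824 and 808 CPM in wild type and 1004, 1031 and 1028 CPM in knockout. All knockout libraries were higher. Timp2 rose by 0.34 ± 0.052 on the log2 scale (adjusted p = 5.17e-04), or 1.27-fold.

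Timp3, on chromosome 10, encodes the inhibitor that stays bound to the matrix and also blocks ADAM proteases. It had 187, 190 and 185 CPM in wild type and 130, 114 and 135 CPM in knockout. All knockout libraries were lower, replicate 2 most of all. The log2 fold change was −0.57 ± 0.072 (adjusted p = 1.62e-04), and without knockout replicate 2 it was −0.50.

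Timp1, on the X chromosome, encodes a soluble inhibitor that also binds the Mmp9 precursor. It had 88.7, 84.3 and 88.6 CPM in wild type and 76.1, 91.3 and 70.4 CPM in knockout. Knockout replicate 2 was the highest of all 6 libraries, and the other knockout libraries were the lowest. With all libraries the log2 fold change of Timp1 was −0.14 ± 0.092 (95% interval −0.35 to 0.07, adjusted p = 0.222). Without knockout replicate 2 it was −0.25 ± 0.047 (adjusted p = 3.53e-06). The coefficient of variation of its CPM was 13.6% in knockout and 2.87% in wild type.

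**Figure D2:**
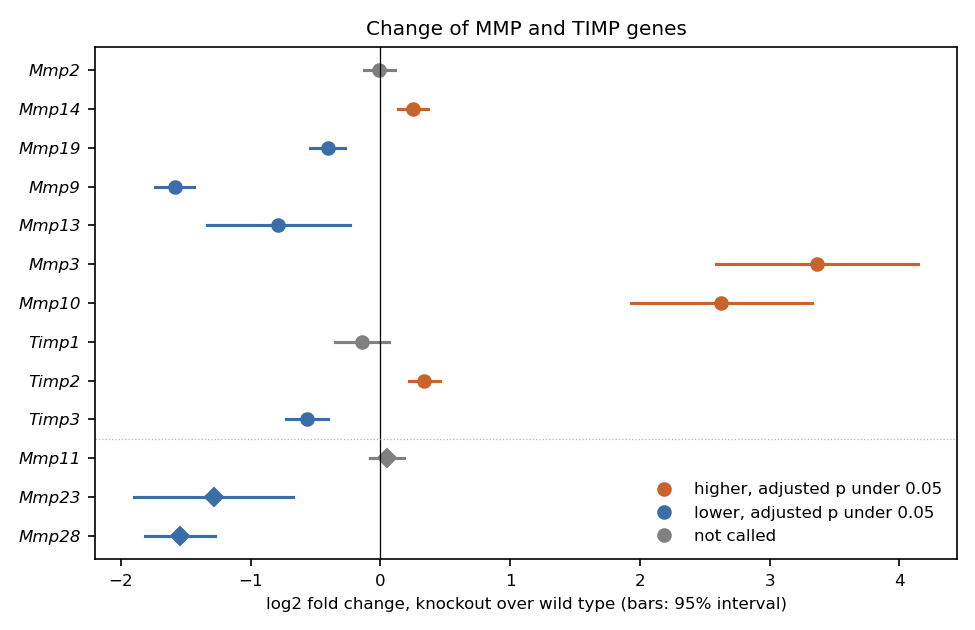
Log2 fold change of knockout over wild type with its 95% interval (circles: the 10 genes; diamonds below the dotted line: Mmp11, Mmp23 and Mmp28). Mmp3 and Mmp10 lie farthest to the right with wide intervals, and Mmp9 at −1.58 and Mmp28 at −1.54 farthest to the left.

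Levels of different genes were compared in the deposited FPKM, which divides by gene length. In wild type the highest mean level was that of Mmp2 (302 ± 0.963 FPKM, SD, n = 3), followed by Mmp14 (237 ± 2.58) and Timp2 (222 ± 5.01). By mean FPKM these genes ranked 147, 192 and 203 among 16000 genes. Timp1 (98.0 ± 2.75 FPKM), Timp3 (39.8 ± 0.479), Mmp19 (30.7 ± 0.842) and Mmp9 (12.9 ± 0.358) followed. Mmp13 (0.826 ± 0.120), Mmp10 (0.179 ± 0.0404) and Mmp3 (0.130 ± 0.0678) closed the order. Neighbours in this order did not overlap between libraries except Mmp10 and Mmp3.

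In knockout the first 7 places by mean FPKM were held by the same genes in the same order, and Mmp3 and Mmp10 moved above Mmp13. Mmp2 stood at 303 ± 7.64 FPKM, Mmp14 at 284 ± 4.43 and Timp2 at 283 ± 4.73. The ranges of Mmp14 and Timp2 overlapped, although Mmp14 was above Timp2 in 3 of 3 libraries. Timp3 (27.1 ± 2.25 FPKM) and Mmp19 (23.4 ± 1.13) also overlapped, as did Mmp3 (1.38 ± 0.180) and Mmp10 (1.14 ± 0.163). Timp1 lay at 89.8 ± 12.8 FPKM, Mmp9 at 4.34 ± 0.155 and Mmp13 at 0.482 ± 0.115. Even after their rise, the stromelysins remained below Mmp9 in FPKM.

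**Figure D3:**
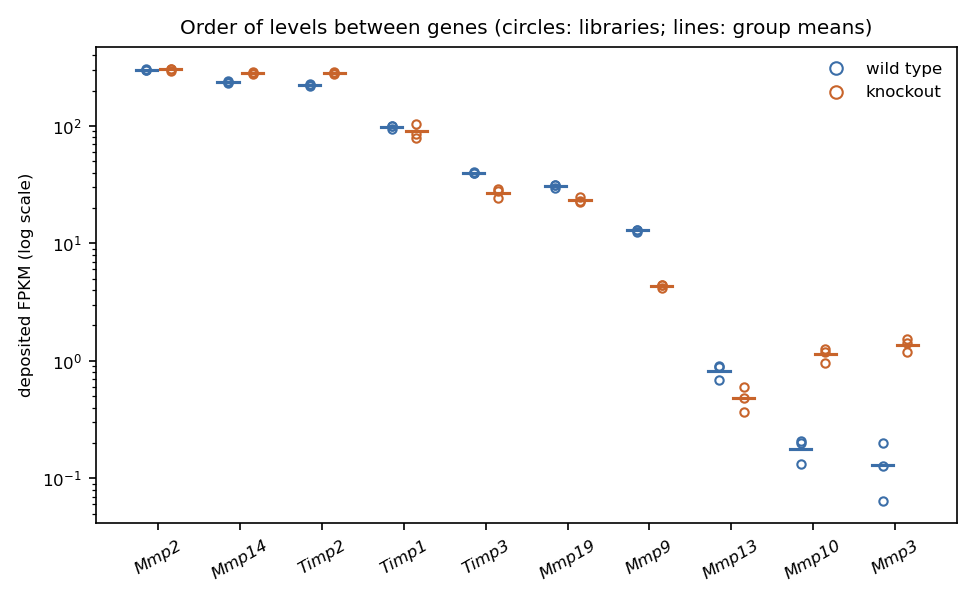
Deposited FPKM on a log axis for each library (circles) with group means (lines), ordered by the wild-type mean. The genes span from 0.130 FPKM (Mmp3) to 302 FPKM (Mmp2) in wild type, and the 2 stromelysins overtake Mmp13 in knockout.

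Within each library, the ratio of Mmp14 to Timp2 in FPKM was 1.08, 1.05 and 1.07 in wild type and 1.00 in each knockout library. The ratio of Mmp2 to Timp2 was 1.39, 1.34 and 1.36 in wild type and 1.10, 1.02 and 1.09 in knockout. All knockout libraries had less Mmp2 transcript per Timp2 transcript. The ratio of Mmp9 to Timp1 was 0.132, 0.138 and 0.125 in wild type and 0.0518, 0.0421 and 0.0525 in knockout. These ratios are descriptions with no test.

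Of the summed FPKM of the 3 TIMPs, Timp2 took 61.7% ± 0.898 in wild type and 70.8% ± 1.64 in knockout (SD, n = 3). Timp3 took 11.1% ± 0.128 and 6.79% ± 0.784, and Timp1 took 27.3% ± 0.934 and 22.4% ± 2.40. The TIMP total was thus weighted more towards Timp2 in every knockout library. Mmp2 and Mmp14 together made up 92.3% ± 0.0947 of the summed FPKM of the 7 MMPs in wild type and 95.03% ± 0.108 in knockout. The ratio of the MMP sum to the TIMP sum ran from 1.62 to 1.63 in wild type and from 1.47 to 1.59 in knockout, with the lowest value in knockout replicate 2.

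**Figure D4:**
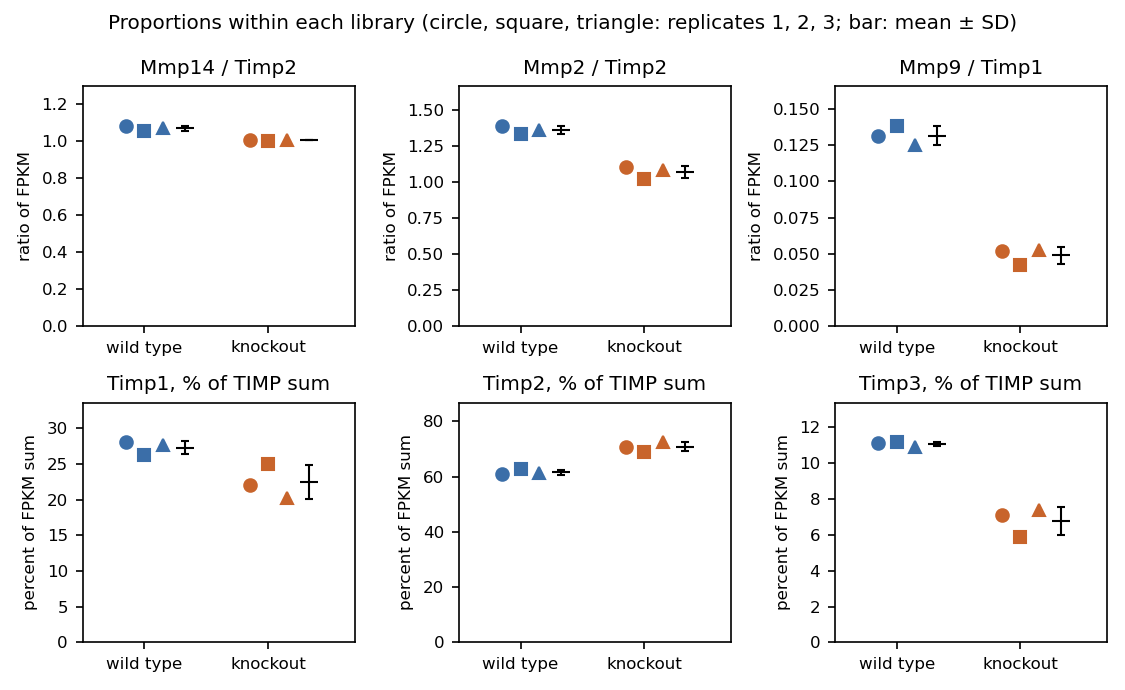
Ratios of FPKM (top) and shares of the summed FPKM of Timp1, Timp2 and Timp3 (bottom) in each library, all axes from 0 (circle, square and triangle: replicates 1, 2 and 3; black bar: mean ± SD, n = 3). The Mmp9 to Timp1 ratio is 0.125 to 0.138 in wild type and 0.0421 to 0.0525 in knockout.

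Genes around each MMP and TIMP on the chromosome were read as the 5 tested genes on each side, with gene order from RefSeq (GRCm38.p6). Over all genes 30.5% were higher and 29.2% lower, and these counts of 10 neighbours are descriptions with no test. Of the 10 neighbours of Mmp3, 7 were lower, 1 was higher and 2 were not called, with a median log2 fold change of −0.41. The higher one was Mmp10 and 1 of the 7 lower was Mmp13, so the count includes genes of the family described here. With 10 genes on each side, 13 of 20 were lower and 2 higher (median −0.37). Dync2h1, a dynein heavy chain of cilia, was lower by −1.77 ± 0.13 on the log2 scale, the inflammatory caspase gene Casp4 by −0.85 ± 0.064 and the apoptosis inhibitor gene Birc3 by −0.52 ± 0.081. In gene order, Mmp12 lies between Mmp13 and Mmp3 and was not tested. It had 0, 2 and 0 counts in wild-type replicates 1, 2 and 3, and 6, 1 and 0 in knockout replicates 1, 2 and 3.

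Of the 10 neighbours of Mmp14, 8 were higher and 1 was lower, with a median log2 fold change of 0.68 beside its own 0.25. With 10 genes on each side, 13 of 20 were higher and 4 lower, and the median was 0.43. The receptor gene Lrp10 next to it was higher by 1.18 ± 0.054. The surroundings of Mmp9 were mixed: 3 neighbours were higher, 1 was lower and 6 were not called (median 0.08), and with 10 genes on each side 9 were higher and 1 lower (median 0.28). The lower one was the phospholipid transfer protein gene Pltp, with a log2 fold change of −5.12 ± 0.30. Timp3 had 5 higher and 0 lower neighbours (median 0.15), and with 10 genes on each side 7 higher and 4 lower (median 0.083). Mmp19 had 5 higher and 1 lower (median 0.18), while Timp3 and Mmp19 themselves were lower. For Timp2 4 neighbours were higher and 2 lower (median 0.10), and with 10 genes on each side 12 and 2 (median 0.30). The counts were, for Mmp2 6 and 2 (median 0.25), and for Timp1 1 and 4 (median −0.23). The neighbours named here were chosen after their values were seen. The higher neighbours also include genes that overlap the gene itself, described below: Syn3 for Timp3, Syn1 for Timp1 and Tmem198b for Mmp19. Of these, Syn3 passed the filter only through the knockout libraries.

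**Figure D5:**
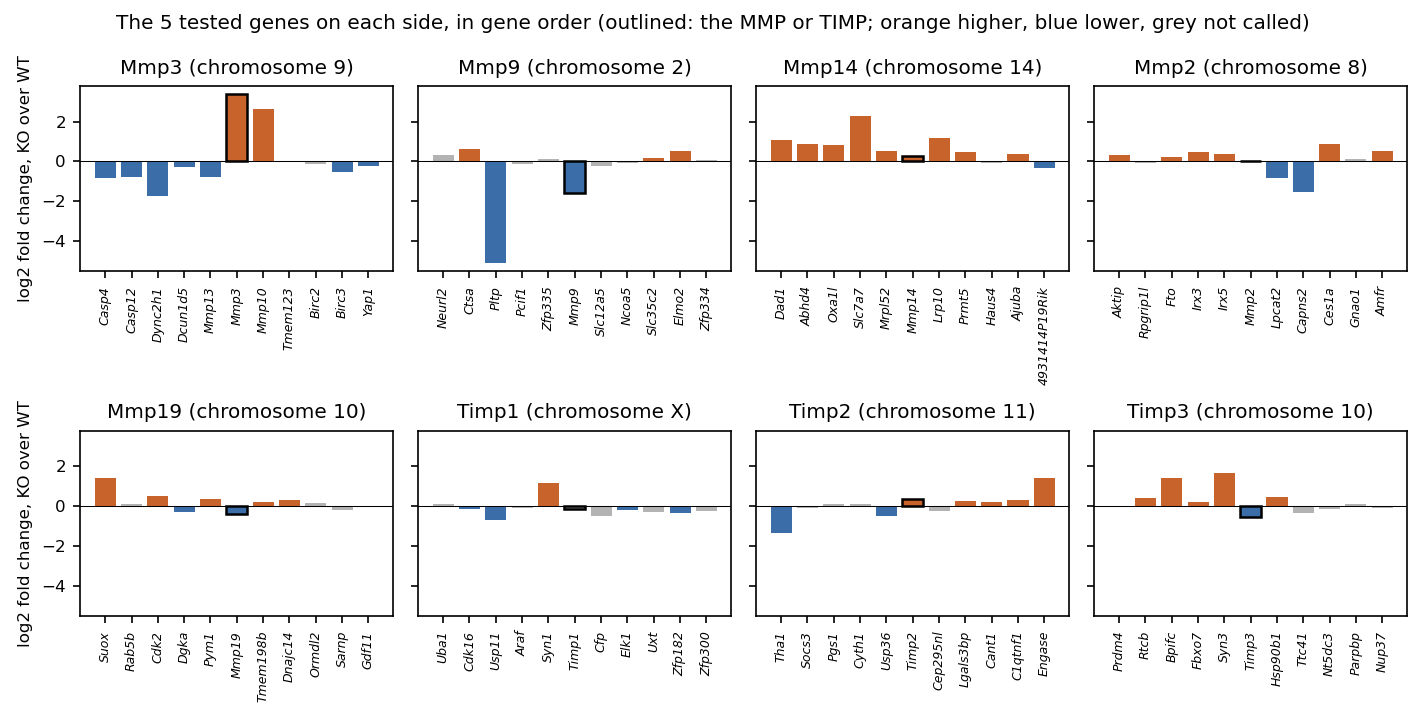
Log2 fold change of knockout over wild type for the 5 tested genes on each side of a gene, in gene order (outlined bar: the MMP or TIMP; orange: higher, blue: lower, grey: not called). In the Mmp3 panel 7 bars are blue, and in the Mmp14 panel 8 bars beside its own are orange.

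Several of the genes overlap another gene in the GENCODE M21 annotation. Timp1 lies inside Syn1, a synapsin gene on the opposite strand, with no shared exon bases, and Timp3 lies inside Syn3 on the opposite strand with overlapping exons. Syn1 had 251, 240 and 286 counts in wild type and 616, 582 and 645 in knockout, a log2 fold change of 1.16 ± 0.087 (adjusted p = 6.76e-06). Syn3 had 4, 8 and 2 counts in wild type and 17, 12 and 19 in knockout (1.67 ± 0.47, adjusted p = 0.0132). It passed the filter only through the knockout libraries and so had to differ, and its call was lost without wild-type replicate 1 or 3. Both hosts were higher where Timp3 was lower and Timp1 was not called. Cep295nl, which lies inside Timp2 on the same strand, had 6 to 24 counts in any library and was not called (adjusted p = 0.712). Mmp19 shares exon bases with Tmem198b on the opposite strand, which was higher by 0.21 ± 0.061. The library kit marks strand, but the sources used here do not say whether counting used it, so reads of such pairs may not be separated.

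Other genes of the family, from a list of 17 (16 MMPs and Timp4), were mostly low or undetected: 12 were in the tables and 4 were tested. Mmp23 and Mmp28 were lower and Mmp11 was not called, where 29.2% of all genes were lower. Mmp16 passed the filter only through the wild-type libraries and so had to differ. Mmp28, a secreted MMP, fell from 15.5, 14.7 and 15.9 CPM in wild type to 6.19, 4.96 and 4.67 CPM in knockout (log2 fold change −1.54 ± 0.12, adjusted p = 8.63e-06). Mmp11, known from stromal cells of tumours, stayed at 81.0 to 85.0 CPM in wild type and 81.1 to 88.2 CPM in knockout (0.05 ± 0.058, adjusted p = 0.478). The following were named after their values were seen. Mmp16, a membrane-anchored MMP, had 53, 50 and 49 counts in wild type and 0 in each knockout library. Against a floor of 3 counts over the knockout group, it was at least 53.8-fold lower. Mmp23 had 73, 55 and 49 counts in wild type and 28, 33 and 16 in knockout (−1.28 ± 0.27, adjusted p = 0.00297). Timp4 had 2 to 8 counts in any library.

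Genes that act on MMPs at the cell surface were read from a list of 16, of which 11 were tested, 4 were higher and 3 lower (median log2 fold change −0.07, against 0.0028 over all genes, of which 30.5% were higher and 29.2% lower). Without knockout replicate 2 the counts were 5 and 4, against 36.0% and 35.1% of all genes in that fit. Reck, a membrane-anchored inhibitor of MMPs, rose from 27.6 ± 2.30 to 39.2 ± 5.11 CPM (0.50 ± 0.11, adjusted p = 0.00295). Bsg, whose product induces MMPs in neighbouring fibroblasts, rose from 357 ± 8.27 to 550 ± 46.0 CPM (0.62 ± 0.069, adjusted p = 7.68e-05). The collagen uptake receptor gene Mrc2 rose from 163 ± 0.819 to 208 ± 12.4 CPM. The urokinase receptor gene Plaur fell from 68.8 ± 2.68 to 44.3 ± 3.85 CPM (−0.64 ± 0.075, adjusted p = 1.03e-04). The urokinase gene Plau went the other way, from 2.96 ± 0.195 to 6.22 ± 0.770 CPM (1.07 ± 0.15, adjusted p = 3.12e-04). Its mean of 4.59 CPM lay below the limit for named genes, and it was named after its values were seen. Furin, the convertase that cleaves the Mmp14 precursor, fell from 161 ± 8.43 to 133 ± 14.4 CPM (−0.28 ± 0.085, adjusted p = 0.0179), a call that was lost without wild-type replicate 2 or 3. Lrp1, which clears MMPs and TIMPs by endocytosis, was not called with all libraries (0.31 ± 0.17, adjusted p = 0.14) and was higher without knockout replicate 2 (0.51).

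Matrix proteins that MMPs cut were read from a list of 19, of which 18 were tested, 6 were higher and 7 lower (median 0.03), against 30.5% and 29.2% of all genes. Without knockout replicate 2 the counts were 9 and 7, against 36.0% and 35.1% of all genes in that fit. The collagen gene Col3a1 fell from 1242 ± 15.3 to 399 ± 13.4 CPM, the proteoglycan gene Dcn from 3158 ± 50.2 to 1702 ± 105 CPM, the basement membrane gene Nid1 from 2422 ± 57.4 to 1224 ± 235 CPM and the laminin gene Lamc1 from 563 ± 9.75 to 312 ± 46.8 CPM. Fbn1, encoding fibrillin, rose from 116 ± 3.07 to 248 ± 51.1 CPM. For these 5 genes the adjusted p lay between 7.88e-08 and 1.64e-04. The other higher genes were Col1a1, Col1a2, Col4a1, Col5a1 and Tnc. The other lower genes were Col5a2, Fn1 and Vcan, and the call of Vcan was lost without wild-type replicate 3. In Nid1, Lamc1 and Fbn1, knockout replicate 2 had the lowest CPM of the knockout libraries.

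Transcription factors of the AP-1, ETS and RUNX families, which are known to act at MMP promoters, were read from a list of 14, all tested: 3 were higher and 8 lower (median −0.45), against 30.5% and 29.2% of all genes. Without knockout replicate 2 the counts were 4 and 8, against 36.0% and 35.1% of all genes in that fit. Fosb, 1 of the 3 higher, lost its call without wild-type replicate 1 or 2 or knockout replicate 1 or 3. The AP-1 genes moved both ways. Jund rose from 51.2 ± 2.40 to 109 ± 17.6 CPM (1.09 ± 0.11), and Jun fell from 427 ± 9.90 to 261 ± 10.9 CPM (−0.71 ± 0.057). Fosl1, an AP-1 partner, fell from 170 ± 3.37 to 102 ± 8.62 CPM (−0.73 ± 0.070), and the ETS genes Etv4 and Etv5 fell by 0.83 ± 0.066 and 0.83 ± 0.081 on the log2 scale. The adjusted p of these 5 genes lay between 1.05e-05 and 3.73e-05.

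Across the 6 libraries, Mmp9 had the highest Pearson r of log2 CPM with Dync1li1, Enpp5, Fam20c, Actr3b and Lef1 (r of at least 0.9996 among 10328 others averaging at least 5 CPM). For Timp2, the genes were Tspyl1, Slc9a3r1, Arl4c, Tent5b and Mmp14 (r from 0.9987 to 0.9999). Many genes came close, since 419 had an r above 0.99 with Mmp9 and 194 with Timp2. These values are descriptions, and the libraries share their groups.

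Markers of other cell types that make MMPs were read from 4 lists. Beside the counts of calls below, 30.5% of all genes tested were higher and 29.2% lower. The 8 macrophage and leukocyte markers summed to 27.7 to 28.7 CPM in wild type and 21.6 to 27.2 CPM in knockout, with 2 higher and 2 lower among 4 tested. Of these 4, Csf1r rose from 20 counts over the wild-type libraries to 99 over the knockout libraries (2.20 ± 0.38, adjusted p = 0.00101) and Cd68 rose by 0.51 ± 0.13, while Aif1 fell by 1.28 ± 0.29 and Cd14 by 0.45 ± 0.11. Csf1r passed the filter only through the knockout libraries. Of the 4 not tested, Ptprc had 0 to 5 counts, Adgre1 0 to 1, Itgam 1 to 5 and Lyz2 2 to 11 in any library. The listed epithelial markers summed to 2.04 to 2.53 CPM in wild type and 4.67 to 5.88 CPM in knockout, and endothelial markers to 2.30 to 2.88 and 4.29 to 6.81 CPM. Of these, 1 of 1 tested epithelial marker (Krt8) and 1 of 2 tested endothelial markers (Cdh5) were higher. Cdh5 passed the filter only through the knockout libraries and so had to differ. Osteoblast and chondrocyte markers, from cells that make Mmp13, summed to 268 to 296 CPM in wild type and 162 to 172 CPM in knockout, nearly all of it Sox9 (CPM of 282 ± 14.4 over the wild-type libraries against 168 ± 5.79 over the knockout libraries), and 2 of 2 tested were lower. The tested genes were Sox9 and Col10a1, and Col10a1 passed the filter only through the wild-type libraries and so had to differ. The bone genes Sp7 and Bglap had 0 to 4 and 0 to 2 counts. The part of these cell types in the MMP and TIMP values was not tested.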

How the data were processed

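The authors deposited a table of raw read counts per gene and a table of FPKM (counts scaled by gene length and library total), with 0 value columns outside these 6 libraries. The tools that the submitters' processing notes list are HTSeq, HISAT2, Trimmomatic, DESeq and Cufflinks, on build GRCm39. The sources used here give neither their roles and versions nor the annotation and strand setting. Per the labels' protocols, TRIzol RNA entered a stranded mRNA kit.

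Genes were kept by filterByExpr (minimum count 10, or 0.567 CPM, in 3 libraries), which left 11972, scaled by TMM and tested with edgeR 4.0.16 (R 4.3.3), with Benjamini-Hochberg adjustment over all genes. The test was checked on simulated data. The SE was derived as the absolute log2 fold change over the root of the F statistic. Alternatives were RLE scaling, library totals, DESeq2 1.42.0, no filter, a replicate block and leaving out each library. The members and lists were chosen with earlier results of these data known. Named listed genes are up to 5 per list with the largest called change, a mean of at least 5 CPM and no overlap between groups. RefSeq gene numbers matched 11941 of 11972 genes, and its coordinates (GRCm38.p6) were used for gene order and promoters only. Epcam, Krt5 and Ibsp, and the promoters of Mmp2, Mmp9 and Mmp19, were not analysed here.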

Additional observations from a re-analysis of the deposited data

How the results depend on the processing

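The calls of Mmp9, Mmp14, Mmp19, Timp2 and Timp3, and their directions, held under RLE scaling, library totals, DESeq2, no filter, the replicate block and each left-out library. Mmp3 and Mmp10 passed the filter through the knockout libraries alone, so their calls with the filter say nothing of stability. With no filter their adjusted p was 1.67e-05 and 6.76e-05 in edgeR. These values come from the same counts, in genes chosen with earlier results known, and add no support. Leaving out 1 library gave log2 fold changes of −0.96 to −0.62 for Mmp13, −0.25 to −0.058 for Timp1 and −0.020 to 0.020 for Mmp2. Mmp2, which was never called, was at 0.0049 with library totals. Replicate numbers did not pair the libraries (correlation of same-numbered deviations −0.07, −0.09 and 0.02), and the replicate block gave 6692 calls over all genes against 7136 without it, with the same 4 higher and 4 lower of the 10 genes. With FPKM rescaled to a common sum per library, which is 421075 in knockout replicate 2 and 365218 to 375935 in the others, the log2 ratios of mean level moved to −0.070 for Mmp2, −1.65 for Mmp9, 0.18 for Mmp14 and 0.27 for Timp2. With 10 neighbours on each side, the neighbours' medians moved to 0.28 (Mmp9), −0.27 (Mmp13), 0.43 (Mmp14), 0.21 (Mmp19), −0.17 (Timp1), 0.30 (Timp2) and 0.083 (Timp3). The cause of these shifts was not tested. Depth limits Mmp3, Mmp10 and Mmp13, whose calls rest on 2 to 51 counts per library. List counts without knockout replicate 2 were added after seeing the data.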
